A study of Mus musculus with 8 samples.

Results

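The growth factors described here are 10 secreted ligands of the PDGF, VEGF, HGF, IGF and TGF-beta families: Pdgfa, Pdgfb, Pdgfc, Vegfa, Vegfb, Vegfc, Pgf, Hgf, Igf1 and Tgfb1. They were taken by symbol, each matched to 1 Ensembl identifier, from a deposited table of 56748 genes, and all 10 had enough reads to be tested. The RNA came from cells of inguinal fat pads of WT female mice, isolated with beads against F4/80, a surface protein of mouse macrophages. In the Aldara group (4 libraries), 62.5 mg of a cream with 5% imiquimod, an activator of an endosomal receptor for single-stranded RNA, was put on shaved skin of the lower back on 3 consecutive days. In the Vehicle group (4 libraries), the same volume of Boots Aqueous Cream/10% Vaseline Lanette Cream was used. Mice of both groups were culled 24 h after the final dose. The labels name no strain or age. Each library pooled cells from 6 fat pads, and the labels do not say how many animals they came from, so p-values measure the spread between such pools, which may be technical. Total counts ranged from 19537607 to 24340674 in Aldara and from 21874780 to 34471508 in Vehicle.

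PDGF ligands act as dimers on receptor tyrosine kinases of fibroblasts, adipocyte progenitors and mural cells and drive their growth. VEGF family ligands act on receptors of blood and lymphatic endothelium, and Vegfa is a classic target of the hypoxia-inducible factors. HGF and IGF1 are trophic factors for epithelium and other cells, whereas TGF-beta is secreted in a latent form that must be released before it signals. Macrophages of fat and other tissues are known sources of several of these ligands.

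Per the labels, more than 90% of the isolated cells carried F4/80 and CD64 in flow cytometry, and the RNA was checked against marker genes. The summed level of 12 macrophage markers ranged from 3690 to 9880 CPM (read counts scaled to the size and composition of each library) in Aldara and from 1560 to 3320 CPM in Vehicle. That of 10 epithelial markers was larger in every library, at 12000 to 15500 CPM in Aldara and 12300 to 16900 CPM in Vehicle. The growth factor reads below therefore come from a mixture with abundant epithelial RNA, and in such bulk samples fewer cells of a type and less RNA per cell cannot be told apart. Markers of fibroblasts and adipocyte progenitors summed to 69.2 to 145 CPM in Aldara and 213 to 583 CPM in Vehicle, and those of endothelium to 378 to 671 CPM and 441 to 639 CPM.

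Of the 10 growth factors, 4 rose in Aldara (Igf1, Pdgfb, Tgfb1 and Pdgfc) and 0 fell at an adjusted p under 0.05 in edgeR's quasi-likelihood test. Of the 16780 genes tested, 6.98% rose and 3.86% fell (10.8% in all). The 10 were chosen with earlier results of these data known, so their counts beside such shares are a description, not a test. At an unadjusted p under 0.05 there were 7 growth factors, which add Pdgfa, Vegfa and Pgf, beside 26.1% of all genes tested. With DESeq2 the lower level of Vegfa in Aldara also passed, where 7.11% of genes fell. The median log2 fold change (Aldara minus Vehicle throughout) of the 10 was 0.24, beside 0.01 over all genes tested. Libraries of both groups did not overlap for 5 growth factors with Aldara above (9.97% of genes tested) and for 1, Vegfa, with Aldara below (7.79%, and 17.8% in either direction). With the replicate number as a block in the fit, 3 rose (9.21% of genes tested) and 0 fell (6.14%, and 15.4% in either direction), Tgfb1 being the call lost. Leaving out 1 library at a time kept 1 to 3 of the 4 calls. Pdgfb was kept in all 8 such fits, Igf1 in 6, Pdgfc in 2 and Tgfb1 in 2. Over all genes 1171 rose and 647 fell, a share of 64.4% higher that was 49.7% (979 and 990) under upper-quartile scaling.

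**Figure D1:**
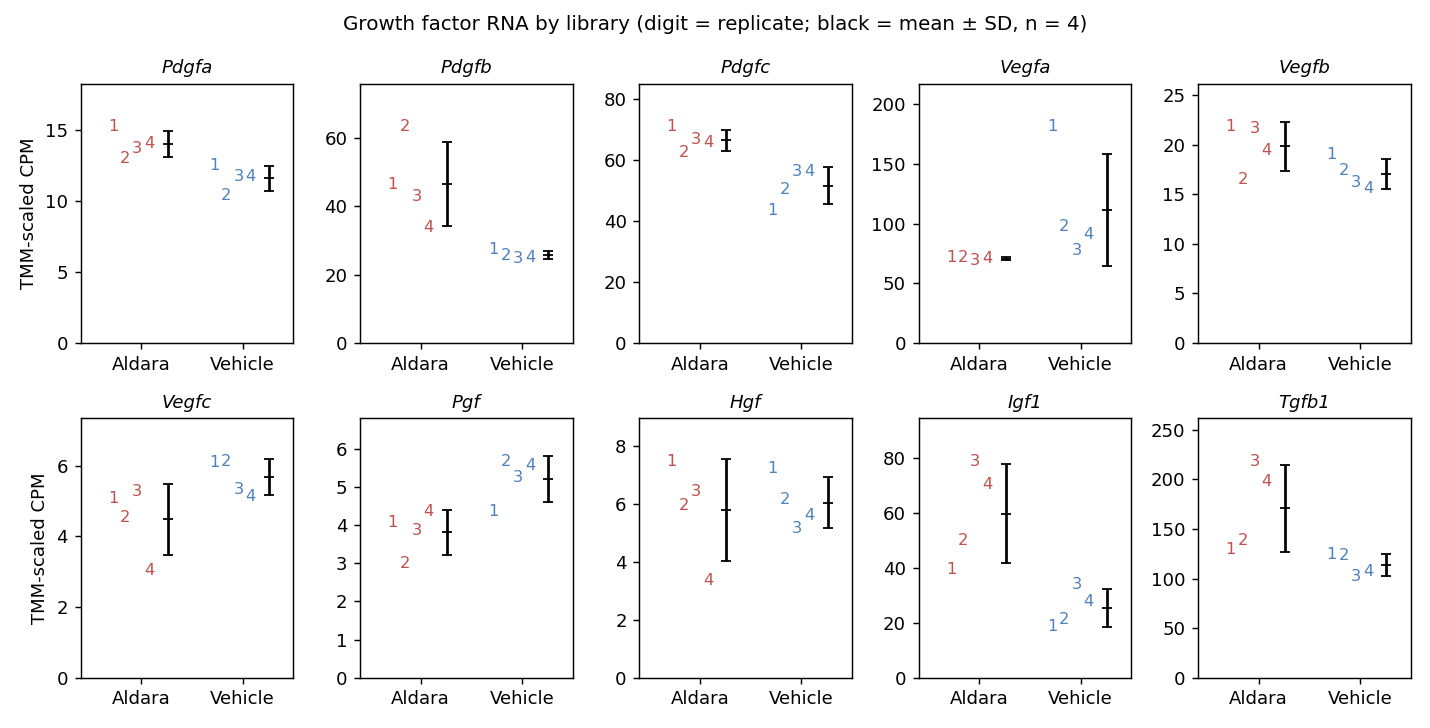
Level of each growth factor in every library, in TMM-scaled CPM on linear axes from 0, with the digit giving the replicate and the black bar the mean ± SD (n = 4). Aldara libraries lie above Vehicle libraries for Pdgfa, Pdgfb, Pdgfc, Igf1 and Tgfb1, and below them for Vegfa.

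The sequences upstream of the growth factors shown here differ in composition. The 250 bases before the RefSeq start site (GRCm38.p6) are shown for 3 growth factors that rose and for Vegfa, the 1 below Vehicle in every library. The windows are those of Igf1 (chr10:87860861-87861110, plus strand), Tgfb1 (chr7:25686752-25687001, plus strand), Pdgfc (chr3:81036166-81036415, plus strand) and Vegfa (chr17:46032378-46032627, minus strand). RefSeq gives Vegfa a second start, whose window (chr17:46025164-46025413, minus strand) is shown as Vegfa second start. On the minus strand this window lies downstream of the first start, inside the gene, and may hold exon sequence. No RefSeq window was available for Pdgfb, which is named only. Capitals mark 4 short motifs searched on both strands: the GC box GGGCGG, the AP-1 element TGANTCA, the PU.1 core GAGGAA and the hypoxia response core ACGTG. No matches overlapped in these windows.
Igf1: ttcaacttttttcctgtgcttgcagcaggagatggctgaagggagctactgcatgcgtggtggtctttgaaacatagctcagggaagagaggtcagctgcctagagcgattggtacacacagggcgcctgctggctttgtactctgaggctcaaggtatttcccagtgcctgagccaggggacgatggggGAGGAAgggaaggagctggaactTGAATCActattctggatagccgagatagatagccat
Tgfb1: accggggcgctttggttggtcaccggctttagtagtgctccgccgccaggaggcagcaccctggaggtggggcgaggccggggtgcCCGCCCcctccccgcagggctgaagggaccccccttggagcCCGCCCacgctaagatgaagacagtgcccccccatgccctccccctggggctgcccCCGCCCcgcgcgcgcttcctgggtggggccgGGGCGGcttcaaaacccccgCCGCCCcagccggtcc
Pdgfc: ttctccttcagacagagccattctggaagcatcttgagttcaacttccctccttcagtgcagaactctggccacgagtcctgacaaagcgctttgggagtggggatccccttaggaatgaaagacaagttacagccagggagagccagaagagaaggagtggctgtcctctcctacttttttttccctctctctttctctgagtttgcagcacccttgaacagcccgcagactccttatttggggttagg
Vegfa: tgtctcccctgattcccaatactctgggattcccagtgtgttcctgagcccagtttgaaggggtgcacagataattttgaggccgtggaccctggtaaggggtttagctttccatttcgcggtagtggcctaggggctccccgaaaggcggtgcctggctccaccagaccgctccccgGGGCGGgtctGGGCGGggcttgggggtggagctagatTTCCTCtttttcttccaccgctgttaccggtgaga
Vegfa second start: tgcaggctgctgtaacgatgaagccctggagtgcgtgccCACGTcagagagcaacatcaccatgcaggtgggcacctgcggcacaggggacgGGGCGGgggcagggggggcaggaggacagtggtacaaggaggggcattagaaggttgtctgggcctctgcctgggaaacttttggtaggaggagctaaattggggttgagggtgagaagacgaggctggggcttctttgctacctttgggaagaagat
Tgfb1 had 5 GC boxes, Vegfa had 2 at the first start shown and 1 at the second, and Igf1 and Pdgfc had 0, where 32.7% of all 32851 RefSeq windows of this length hold at least 1. Igf1 had 1 AP-1 element (held by 6.75% of all windows) and 1 PU.1 core (23.3%), and Vegfa had 1 PU.1 core at the first start and 0 at the second. The hypoxia response core, present in 16.6% of all windows, was found 1 time at the second start of Vegfa and 0 times in the other windows shown. That match lies inside the gene, not upstream of the first start of Vegfa. A match is a description of letters and was not tested as a binding site. Bases outside these windows were not searched. The GC content of the windows was 52.8% for Igf1, 75.2% for Tgfb1, 50.8% for Pdgfc, and 59.2% and 59.6% for Vegfa, beside a median of 52.4% over all windows.

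Among the PDGF ligands, Pdgfb, the B chain that endothelium uses to recruit mural cells and that macrophages also make, had the smallest p of the 10. It had 46.3, 63.3, 42.8 and 33.9 CPM in Aldara replicates 1 to 4, against 27.5, 25.7, 24.8 and 25.1 CPM in Vehicle replicates 1 to 4. The Vehicle libraries lay close together, the Aldara libraries were spread, and the lowest Aldara library was above the highest Vehicle library. Pdgfb averaged 46.6 ± 12.3 CPM in Aldara and 25.8 ± 1.22 CPM in Vehicle (SD, n = 4 each), a log2 fold change of 0.86 (SE 0.16, edgeR adjusted p = 0.00859). Aldara replicate 2, highest for Pdgfb, had 5250 CPM of summed macrophage markers, above Aldara replicate 1 (3690 CPM) and below Aldara replicates 3 and 4, and 378 CPM of endothelial markers, the lowest of its group. The part of these cell types in the result was not tested.

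Pdgfc, a ligand of PDGF receptor alpha that is cut by plasminogen activators before it can signal, had 71.0, 62.6, 66.9 and 66.0 CPM in Aldara, against 43.6, 50.5, 56.3 and 56.4 CPM in Vehicle. The groups did not overlap, and Vehicle replicate 1 was the lowest library. Its means were 66.6 ± 3.42 CPM in Aldara and 51.7 ± 6.05 CPM in Vehicle, with a log2 fold change of 0.36 (SE 0.1, edgeR adjusted p = 0.0341). The call was lost without any 1 of the Aldara libraries or without Vehicle replicate 1 or 2 (adjusted p between 0.0604 and 0.0866), and under upper-quartile scaling (0.078). Pdgfa, the A chain, had 15.2, 13.0, 13.7 and 14.0 CPM in Aldara, against 12.5, 10.4, 11.7 and 11.7 CPM in Vehicle. These groups did not overlap either, but the log2 difference of 0.27 (SE 0.11) did not pass the test (edgeR adjusted p = 0.156). An antisense transcript covers 26.1% of the annotated exon bases of Pdgfa, so the source of part of its reads is uncertain, and such overlap was 2.89% for Pdgfc and 0 for Pdgfb.

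Igf1, the insulin-like growth factor that liver, fibroblasts and macrophages secrete, showed the largest fold change of the 10. Its level was 39.5, 50.1, 78.8 and 70.6 CPM in Aldara, against 18.8, 21.2, 34.1 and 27.8 CPM in Vehicle. Replicate 3 was highest and replicate 1 lowest in both groups, and the lowest Aldara library was above the highest Vehicle library. Mean levels were 59.7 ± 18.1 CPM in Aldara and 25.5 ± 6.91 CPM in Vehicle, a log2 fold change of 1.22 (SE 0.25, edgeR adjusted p = 0.0166). Within same-numbered pairs the log2 differences were 1.07, 1.24, 1.21 and 1.34, and the adjusted p with the replicate block was 7.42e-05. Without Aldara replicate 4 the adjusted p of Igf1 was 0.0654 and without Vehicle replicate 2 it was 0.0506, with log2 fold changes of 1.12 and 1.15. The call was also lost with no filter on low counts (adjusted p = 0.0859, log2 fold change 1.22).

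The summed macrophage markers followed the same order of libraries as Igf1 within Aldara, with 3690, 5250, 9880 and 9150 CPM in replicates 1 to 4. In Vehicle they measured 1560, 2340, 3320 and 2350 CPM, again highest in replicate 3 and lowest in replicate 1. Of the 12 macrophage markers 6 rose (11 with the replicate block) and 0 fell, where 6.98% of all genes tested rose (9.21% with the block) and 3.86% fell. The median log2 fold change of the markers was 1.26, beside 1.22 for Igf1. Single markers ranged widely, from 0.42 for Fcgr1 (edgeR adjusted p = 0.436) to 3.55 for Adgre1 (adjusted p = 0.0021). The part of macrophage RNA content in the change of Igf1 was not tested.

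Tgfb1, the TGF-beta isoform of leukocytes, was the most abundant of the 10 by CPM in 3 of 4 Vehicle libraries and in all 4 Aldara libraries. Tgfb1 had 129, 138, 218 and 198 CPM in Aldara, against 124, 123, 102 and 107 CPM in Vehicle. Aldara replicates 3 and 4 stood well above Vehicle, whereas replicates 1 and 2 lay only slightly above the highest Vehicle library. The means were 171 ± 43.6 CPM in Aldara and 114 ± 11.1 CPM in Vehicle, with a log2 fold change of 0.59 (SE 0.16, edgeR adjusted p = 0.0468). Same-numbered pairs differed by 0.06, 0.17, 1.1 and 0.89, and with the replicate block the adjusted p was 0.0859. The call was also lost without Aldara replicate 3 or 4 or any 1 of the Vehicle libraries (adjusted p between 0.0774 and 0.148), with DESeq2 size factors (0.0583), with limma voom (0.0595) and with no filter on low counts (0.0981). The 2 Aldara libraries high in Tgfb1 were also those highest in macrophage markers, a relation whose part in the result was not tested.

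**Figure D2:**
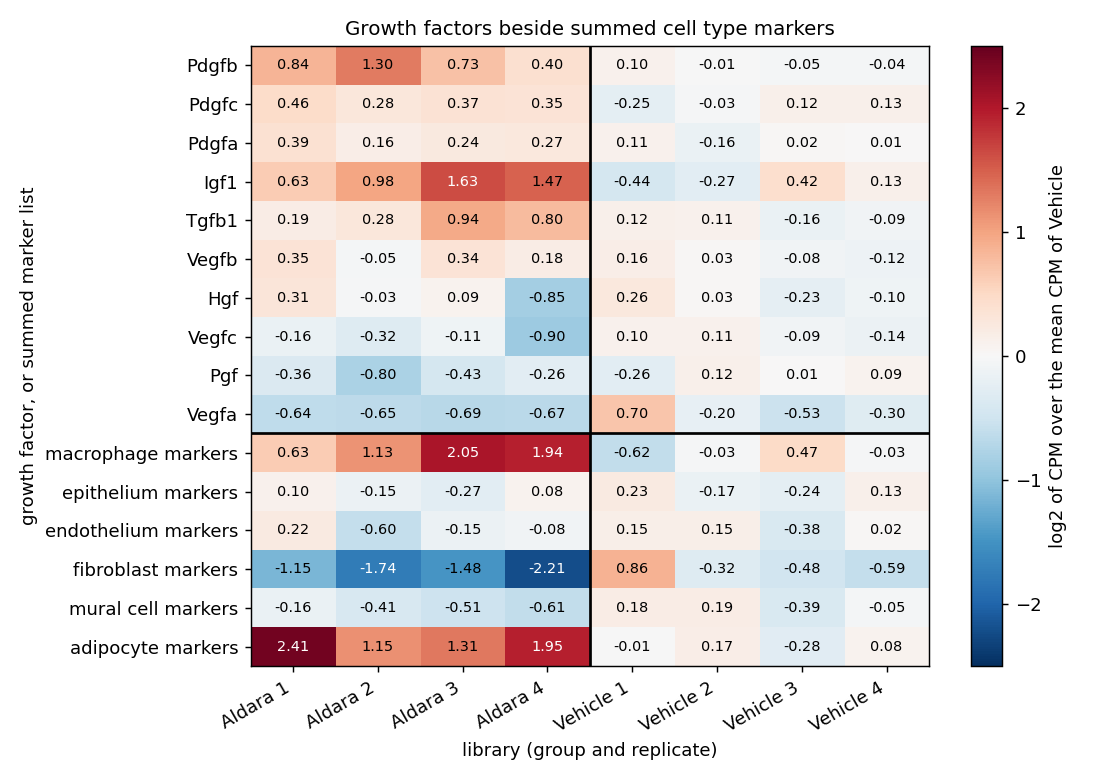
Log2 of each library's CPM over the mean CPM of Vehicle, for the 10 growth factors and for 6 summed lists of cell type markers, with Aldara libraries left of the line. Igf1 is highest in Aldara replicates 3 and 4 (1.63 and 1.47), as are the macrophage markers (2.05 and 1.94), and Pdgfb is highest in Aldara replicate 2 (1.3).

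No VEGF family ligand passed the test. Vegfa, the main angiogenic ligand of endothelium, had 71.6, 71.3, 69.1 and 70.3 CPM in Aldara, against 181, 97.6, 77.5 and 90.5 CPM in Vehicle. All 4 Aldara libraries lay within a narrow band just under the lowest Vehicle library, and Vehicle replicate 1 stood far above the other Vehicle libraries. Vegfa averaged 70.6 ± 1.12 CPM in Aldara and 112 ± 47.1 CPM in Vehicle, a log2 difference of −0.66 (SE 0.24) that did not pass (edgeR adjusted p = 0.111). It passed with DESeq2 (log2 −0.68, adjusted p = 0.0287). Without Vehicle replicate 1 the log2 difference was −0.33, and same-numbered pairs differed by −1.34, −0.45, −0.16 and −0.37.

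Vegfb, a relative of Vegfa that binds only VEGF receptor 1 among the receptor kinases, ranged from 16.5 to 21.8 CPM in Aldara and from 15.6 to 19.0 CPM in Vehicle, with a log2 difference of 0.22 (SE 0.12, edgeR adjusted p = 0.285). Vegfc, the lymphangiogenic ligand of VEGF receptor 3, ranged from 3.03 to 5.27 CPM and from 5.14 to 6.12 CPM, with a log2 difference of −0.33 (SE 0.19, adjusted p = 0.317). Pgf, placental growth factor, another ligand of VEGF receptor 1, ranged from 2.99 to 4.36 CPM in Aldara and from 4.36 to 5.67 CPM in Vehicle, with a log2 difference of −0.45 (SE 0.18, adjusted p = 0.137). For Vegfc and Pgf the groups met only at their edges, and every Aldara library was below its same-numbered Vehicle library. These levels rest on few reads: Vegfc had 57 to 128 counts per library in Aldara and 130 to 189 in Vehicle, and Pgf had 75 to 95 and 93 to 186.

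Hgf, the ligand of the receptor Met and a product of stromal cells, had 7.47, 5.94, 6.42 and 3.35 CPM in Aldara, against 7.22, 6.17, 5.17 and 5.62 CPM in Vehicle. Aldara replicate 4 was lowest, with 63 counts, and the groups otherwise overlapped. The log2 difference was −0.05 (SE 0.23, edgeR adjusted p = 0.921), and its sign turned without Aldara replicate 4 (0.11) or without Vehicle replicate 1 (0.04). Gm43489, a gene on the same strand, covers 6.74% of the annotated exon bases of Hgf, so the assignment of part of the reads is uncertain. Of 8 markers of fibroblasts and adipocyte progenitors, 6 fell and 0 rose, with a median of −1.48, where 3.86% of all genes tested fell. Pdgfra of this list did not pass (log2 −0.15, edgeR adjusted p = 0.74). The relation of these markers to Hgf was not tested.

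**Figure D3:**
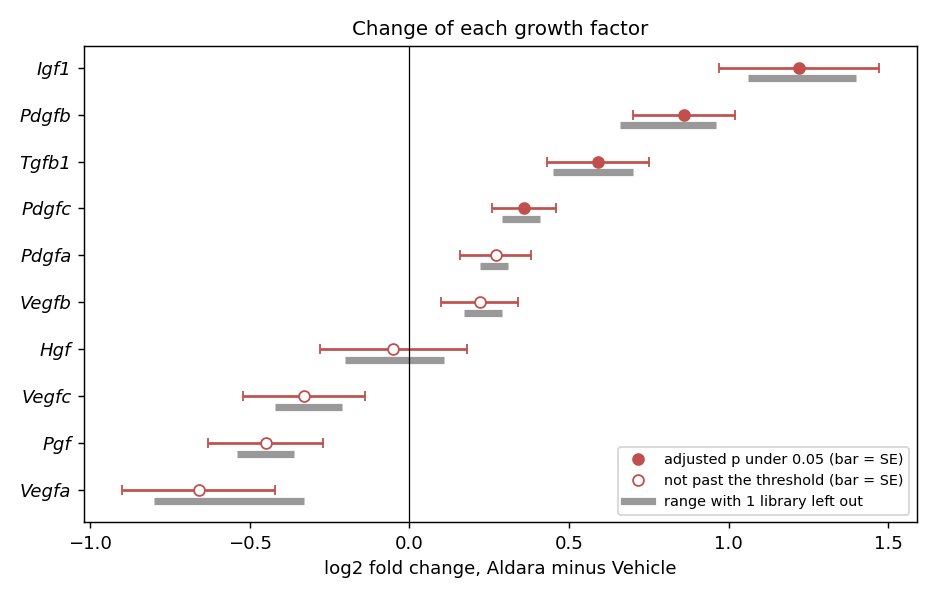
Log2 fold change of each growth factor, Aldara minus Vehicle, with its SE, filled where the adjusted p was under 0.05, above a grey band that gives the range with 1 library left out. Igf1 (1.22), Pdgfb (0.86), Tgfb1 (0.59) and Pdgfc (0.36) are filled, and only the band of Hgf crosses 0.

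Divided by annotated exon length, Tgfb1 was first in Aldara with 33.9 ± 8.65 CPM per kb, followed by Vegfa with 16.5 ± 0.26 CPM per kb. In Vehicle Vegfa (26.1 ± 11) and Tgfb1 (22.6 ± 2.19 CPM per kb) led and their ranges overlapped. Pdgfc (13.1), Vegfb (12.3) and Pdgfb (11.2 CPM per kb) came next in Aldara with overlapping ranges. In Vehicle, Vegfb (10.6) and Pdgfc (10.2) overlapped each other and lay above Pdgfb (6.19 CPM per kb). Igf1 was sixth in Aldara with 6.03 ± 1.83 CPM per kb, overlapping Pdgfa, and seventh in Vehicle with 2.57 ± 0.697 CPM per kb, overlapping Pdgfa and Vegfc. Vegfc, Pgf and Hgf were the lowest 3 in both groups. Of the summed level per kb of the 10, Vegfa made up 14.3 to 17.7% in Aldara libraries and 23.4 to 40.4% in Vehicle libraries, and Tgfb1 27.2 to 38.3% and 23.4 to 28.7%. Coverage along transcripts was not examined, so a length correction assumes it is even.

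**Figure D4:**
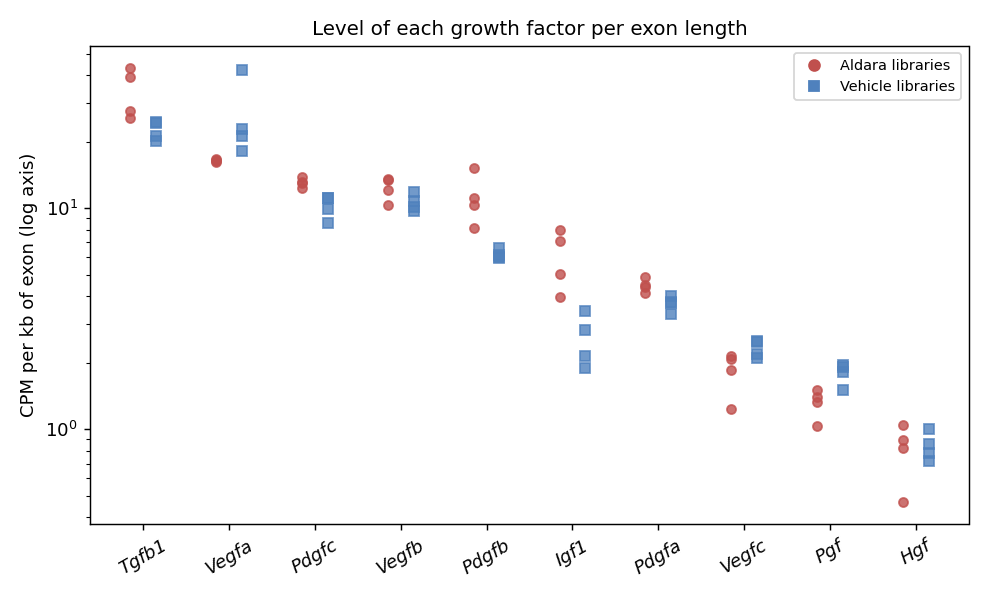
Level of each growth factor per kb of exon on a log axis, circles for Aldara libraries and squares for Vehicle libraries, ordered by the mean over all 8. Tgfb1 and Vegfa lead, and Hgf is lowest at a mean of 0.807 in Aldara and 0.841 CPM per kb in Vehicle.

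Among all tested genes, those whose profile over the 8 libraries lay closest to a growth factor that rose were named by the root mean square difference of log2 CPM after each gene's mean was removed. For Igf1 they were Neurl3, a ubiquitin ligase (0.0765), Tnfaip8l2, an immune regulator (0.0949), and Arrb2, beta-arrestin 2 (0.115). For Tgfb1 they were Ap2a2, an adaptor of clathrin coats (0.0589), Slc7a7, an amino acid transporter (0.0804), and Steap3, a metalloreductase (0.0823). For Pdgfc they were Arhgef3 (0.0631), Cryl1 (0.0648) and Trafd1 (0.0773), and for Pdgfb Ogfrl1 (0.14), Kcnj15 (0.147) and Slc16a5 (0.148).

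The wider pathways were read from 7 lists of 95 genes, of which 91 were tested. In all, 7 rose and 5 fell (11 and 7 with the replicate block). Beside these and the counts of each list below, 6.98% of all 16780 genes tested rose and 3.86% fell (9.21% and 6.14% with the block). Of 6 other ligands of these families, 4 were tested and 0 passed edgeR, with Tgfb2 at an unadjusted p under 0.05. Tgfb2 averaged 10.6 ± 2.32 CPM in Aldara and 7.52 ± 1.4 CPM in Vehicle (edgeR adjusted p = 0.123, and 0.0418 with the replicate block). Tgfb3 averaged 90.0 ± 25.3 CPM and 136 ± 43.9 CPM (adjusted p = 0.213, and 0.019 with the block). The 2 isoforms thus differed in sign, Tgfb2 being above its paired Vehicle library in 4 of 4 pairs and Tgfb3 below in 4 of 4.

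Of 16 receptors and co-receptors, 2 rose and 0 fell, with a median of 0.13. Acvrl1, the receptor ALK1 of endothelium, had 46.6, 38.1, 51.3 and 41.9 CPM in Aldara, against 34.7, 34.5, 26.1 and 29.4 CPM in Vehicle, without overlap (log2 0.51, SE 0.12, edgeR adjusted p = 0.0227). Nrp1, a co-receptor of VEGF and semaphorins that macrophages also carry, had 73.1, 85.3, 118 and 139 CPM in Aldara, against 61.9, 65.3, 63.3 and 67.3 CPM in Vehicle (log2 0.69, SE 0.18, adjusted p = 0.0344). Nrp1 was highest in Aldara replicates 3 and 4, the libraries richest in macrophage markers, and the part of those cells in the result was not tested. Its call was lost without Aldara replicate 3 or 4 or any 1 Vehicle library (highest adjusted p = 0.0977) and with no filter on low counts (0.0978), and that of Acvrl1 without Aldara replicate 3 or 4 or Vehicle replicate 4 (highest 0.0705). The PDGF, VEGF, HGF and IGF receptor kinases Pdgfra, Pdgfrb, Flt1, Kdr, Flt4, Met and Igf1r did not pass, at log2 differences between −0.32 and 0.59. With the replicate block Tgfbr1 (log2 0.3, adjusted p = 0.0377) and Tgfbr2 (0.36, adjusted p = 0.0422), the TGF-beta receptor kinases, passed as well.

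Of 10 tested IGF-binding proteins and related proteases, 1 fell and 0 rose, with a median of −0.35. Igfbp3, a carrier of IGFs, had 32.2, 16.4, 23.5 and 18.1 CPM in Aldara, against 99.6, 46.4, 48.1 and 69.9 CPM in Vehicle. All Aldara libraries were below all Vehicle libraries, and the log2 fold change was −1.55 (SE 0.29, edgeR adjusted p = 0.0118). The call was lost with no filter on low counts (adjusted p = 0.0614). Igfbp5, the most abundant of this list, averaged 3090 ± 863 CPM in Aldara and 2970 ± 637 CPM in Vehicle and did not pass (adjusted p = 0.906). The fall of Igfbp3 stood beside that of the fibroblast markers, a relation whose part in the result was not tested.

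Among 22 tested genes of ligand processing, release and storage, 2 rose and 2 fell. Nrros, which holds latent TGF-beta on the surface of myeloid cells, had 88.5, 126, 235 and 209 CPM in Aldara, against 48.8, 59.7, 71.7 and 59.7 CPM in Vehicle (log2 1.45, SE 0.29, edgeR adjusted p = 0.014). Without Aldara replicate 4 its adjusted p was 0.0563, and with no filter on low counts it was 0.0809. Itgb6, an integrin chain of epithelium that releases latent TGF-beta, had 18.4, 20.2, 14.7 and 22.8 CPM in Aldara, against 7.88, 9.05, 8.53 and 11.3 CPM in Vehicle (log2 1.05, SE 0.16, adjusted p = 0.00417). Nrros was highest in the Aldara libraries rich in macrophage markers, whereas Itgb6 was lowest in Aldara replicate 3, which had the lowest epithelial sum of that group. The part of these cell types in either result was not tested. Pcsk6, a proprotein convertase, averaged 2.98 ± 0.568 CPM in Aldara and 9.51 ± 4.21 CPM in Vehicle (log2 −1.67, SE 0.29, adjusted p = 0.00627). Sparc, a matrix protein that binds PDGF, averaged 154 ± 27.7 CPM in Aldara and 260 ± 43.1 CPM in Vehicle (log2 −0.76, SE 0.15, adjusted p = 0.0102). For these 4 genes the groups did not overlap. The fall of Sparc, like that of Igfbp3, stood beside the fall of the fibroblast markers, a relation whose part was not tested. With the replicate block Plaur, the urokinase receptor, also rose (log2 0.73, adjusted p = 0.000753) and Ltbp4, a latent TGF-beta binding protein, fell (−0.99, adjusted p = 0.0166).

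The intracellular TGF-beta pathway showed no call. None of 12 signalling and feedback genes passed edgeR, with 0 at an unadjusted p under 0.05, and the median was 0.03. The 2 with the smallest p were Ski, a repressor of SMAD proteins, at 239 ± 13.8 CPM in Aldara and 208 ± 27.1 CPM in Vehicle, and Smad2, a receptor-activated SMAD, at 80.8 ± 7.43 and 74.5 ± 5.03 CPM. Ski and Smad2 did not pass with DESeq2 either (adjusted p = 0.325 and 0.594). Of 8 TGF-beta target genes 1 rose and 1 fell, with a median of −0.02. Id2, an inhibitor of helix-loop-helix factors, averaged 52.2 ± 15.5 CPM in Aldara and 30.6 ± 3.4 CPM in Vehicle (log2 0.77, SE 0.2, edgeR adjusted p = 0.0341). The call on Id2 was lost without Aldara replicate 3 or 4 or any 1 Vehicle library (highest 0.11) and with no filter on low counts (0.111). Id2 had 36.3, 41.4, 66.9 and 64 CPM in Aldara replicates 1 to 4. It was highest in replicates 3 and 4, the libraries richest in macrophage markers, whose part in the result was not tested. Tgm2, a transglutaminase, had 790, 694, 597 and 1020 CPM in Aldara, against 6790, 1970, 1340 and 2630 CPM in Vehicle (log2 −2.04, SE 0.47, adjusted p = 0.025). Without any 1 Aldara library the call on Tgm2 was lost (adjusted p between 0.0602 and 0.0757), as it was with no filter on low counts (0.114), and without Vehicle replicate 1 its log2 fold change was −1.35.

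Of 19 genes of hypoxia sensing and HIF targets, 2 rose and 1 fell, with a median of −0.09. Egln3, an oxygen-sensing hydroxylase that is itself a HIF target, had 51.9, 56.6, 49.6 and 46.6 CPM in Aldara, against 73.6, 77.2, 70.5 and 70.8 CPM in Vehicle (log2 −0.51, SE 0.08, edgeR adjusted p = 0.00499). Egln2, a related hydroxylase, averaged 107 ± 20.6 CPM in Aldara and 66.8 ± 4.81 CPM in Vehicle (log2 0.68, SE 0.13, adjusted p = 0.00864). Egln2 had 86.8, 91.8, 125 and 124 CPM in Aldara replicates 1 to 4. It was highest in replicates 3 and 4, the libraries richest in macrophage markers, whose part in the result was not tested. Arnt, the partner subunit of the HIF factors, averaged 77.8 ± 7.63 CPM and 59.0 ± 2.03 CPM (log2 0.4, SE 0.09, adjusted p = 0.0158), a call lost without Aldara replicate 2 or 4 or Vehicle replicate 2 (highest 0.0577). Hif1a, an oxygen-regulated HIF subunit named here after its values were seen, had 193, 197, 193 and 236 CPM in Aldara, against 771, 287, 236 and 384 CPM in Vehicle, and did not pass (adjusted p = 0.08). Vehicle replicate 1 was highest for Hif1a as it was for Vegfa, Tgm2 and the fibroblast markers (583 CPM). It also had the highest epithelial sum (16900 CPM) and the lowest macrophage sum (1560 CPM) of all libraries. The part of these cell types in the levels of Hif1a, Vegfa and Tgm2 was not tested.

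**Figure D5:**
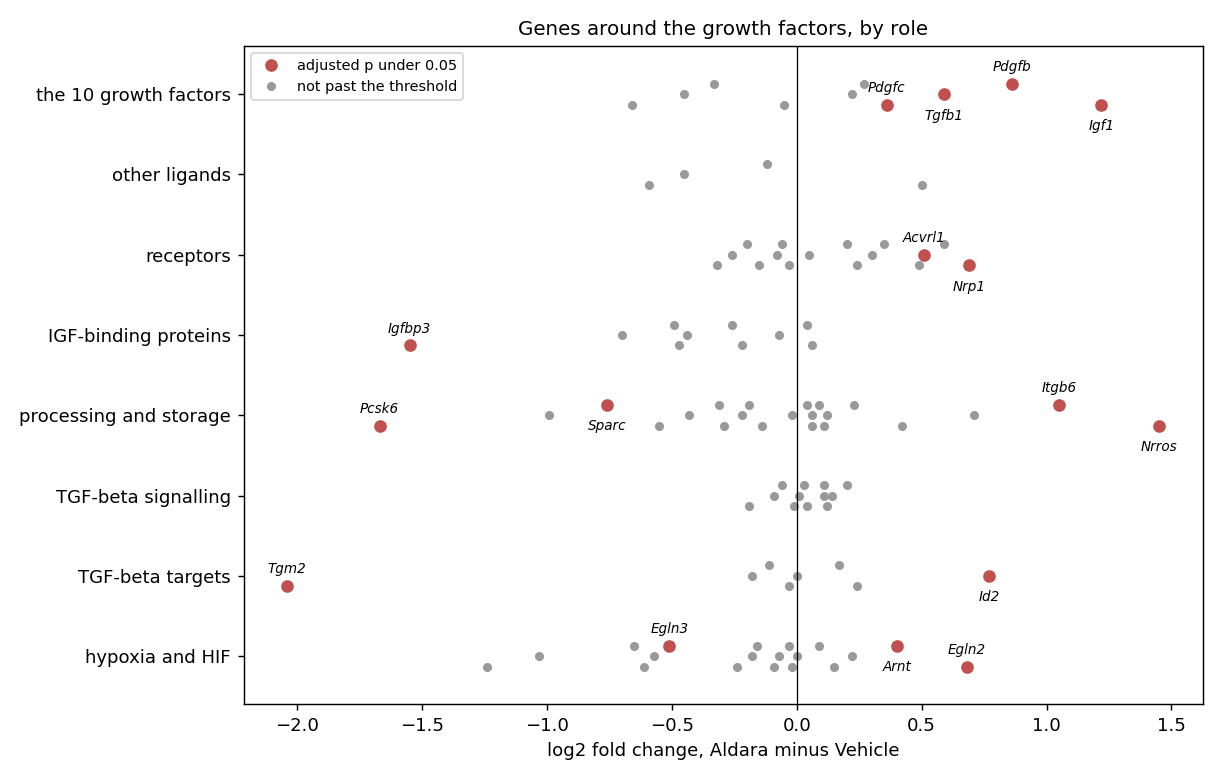
Log2 fold change, Aldara minus Vehicle, of the growth factors and of the genes of each list by role, with genes at an adjusted p under 0.05 named. Nrros (1.45) and Itgb6 (1.05) are the largest rises outside the growth factors, and Tgm2 (−2.04), Pcsk6 (−1.67) and Igfbp3 (−1.55) the largest falls.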

How the data were processed

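The authors deposited whole-number read counts per Ensembl gene, not normalised, for 8 libraries. The submitters' processing notes name the mm10 build, DESeq2, HISAT2 2.0.5 and, for counting, featureCounts 1.5.0-p3. Its options are not stated there. Per the labels' protocols, RNA was amplified with a SMARTer kit, which does not mark strand, so reads of antisense genes cannot be told apart. Symbols were found for 91.8% of identifiers.

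Counts were filtered with filterByExpr (16780 genes kept), scaled with TMM factors (0.957 to 1.035) and tested with the robust quasi-likelihood test of edgeR 4.0.16 in R 4.3.3, with Benjamini-Hochberg adjustment over all genes tested and a threshold of 0.05. The SE was derived from the F statistic. Levels are TMM-scaled CPM, and 1 count was worth 0.0282 to 0.0532 CPM. Precision covers counting error and the spread of 4 libraries per group. Alternatives were DESeq2 1.42.0, limma 3.58.1 voom, other scalings, no filter, leaving out each library, and the replicate number as a block. Same-numbered libraries deviated together (correlations across genes 0.23, 0.11, 0.17 and 0.22, other pairs −0.22 to 0.08). The numbers in the titles were therefore taken to pair the libraries in the block fit, whereas the main test left this pairing out. No 2 libraries of a group agreed within sampling noise (lowest chi-square per degree of freedom 20.4). The procedure was also run on counts simulated from the dispersions fitted here, with independent libraries, so that run cannot judge effects of pairing. Exon lengths and overlaps are from GENCODE M21 (union of exons). Some deposited identifiers are newer than that release, so levels per kb and overlap shares may differ from those of the annotation used in counting.

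The growth factors and lists were chosen with earlier results of these data known. Named are all 10 growth factors, of each list up to 4 genes past the threshold by smallest p, or the 2 of smallest p where none passed, and the 3 genes of closest profile for each growth factor that rose. Predicted gene models were left out of the last. Genes named only with the replicate block, receptors that did not pass, Igfbp5 and Hif1a were added after their values were seen.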

Additional observations from a re-analysis of the deposited data

Results flagged for a closer look

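In a scan of 26 named genes in both groups (52 groups of 4 libraries), 2 libraries lay far from the other 3 of their group by the gap relative to the range, and chance gives such a flag in about 5% of groups. Tgfb3 measured 52.2 CPM in Aldara replicate 4, against 101 to 104 CPM in the other Aldara libraries. Egln2 measured 74.0 CPM in Vehicle replicate 2, against 63.5 to 64.9 CPM in the other Vehicle libraries.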

How the results depend on the processing

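Of the 10 growth factors, the number that rose was 4 in the main test and 2 without a filter on low counts, where 31704 genes were tested, and 1 to 3 with 1 library left out. The number that fell was 0, with 0 in every fit with 1 library left out, and 1 with DESeq2 (Vegfa). The direction of each growth factor held in all alternatives other than that of Hgf, which ranged from −0.2 to 0.11 with 1 library left out. Pathway genes that rose and fell numbered 7 and 5, 4 and 3 without the filter, and 11 rose with the replicate block; with 1 library left out they numbered 2 to 8 and 4 to 7. Over all genes the fallen numbered 647, 990 under upper-quartile scaling, 1192 with DESeq2 and 1030 with the replicate block, and with 1 library left out 629 to 1405 rose and 323 to 664 fell. Without Aldara replicate 3, Aldara replicate 4, Vehicle replicate 1 or Vehicle replicate 2 the counts of all genes that rose were 658, 629, 703 and 699. Without Aldara replicate 2, Aldara replicate 3, Vehicle replicate 1 or Vehicle replicate 2 the counts that fell were 353, 323, 415 and 412. Growth factors that rose numbered 1 without Aldara replicate 4 or Vehicle replicate 2, and pathway genes that rose numbered 2 without Aldara replicate 4. Among the growth factors, the replicate block changed the call of Tgfb1 only. Fits with 7 libraries have fewer degrees of freedom, and the cause of other lost calls was not tested. At about 60 to 190 counts per library, the depth limits what can be said of Vegfc, Pgf and Hgf.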

Other observations

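Of the pathway lists, 4 genes had too few reads to be tested. Igf2, the fetal IGF ligand, had 31 counts over the 4 Aldara libraries and 54 over the 4 Vehicle libraries. Mst1, the ligand of the receptor Ron, had 20 and 19 counts, Hgfac, an activator of HGF, had 13 and 30, and the protease Pappa2 had 11 and 5. Platelets carry PDGF and TGF-beta, and 6 platelet markers summed to 45.0 to 93.0 CPM in Aldara and 48.3 to 81 CPM in Vehicle, most of it from Pf4, which macrophages also express (31.4 to 79.6 CPM in Aldara and 35.1 to 69.0 CPM in Vehicle). Gp1bb was at 0 in every library. The 6 adipocyte markers summed to 12.9 to 30.8 CPM in Aldara and 4.77 to 6.53 CPM in Vehicle.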
